A study of Mus musculus with 2 samples.

Results

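The genes described here are 45 genes of the cell cycle, of 31053 in the count tables, chosen by symbol as a set that marks dividing cells: 11 genes of DNA replication and nucleotide supply and 34 genes of S-phase chromatin, mitotic kinases, the checkpoint, the kinetochore and the spindle. They were counted in adipose tissue macrophages (ATMs) from the epididymal fat of male C57/BL6 mice aged 8 to 12 weeks. The CD library pooled ATMs of 3 mice fed control diet, with 11 kcal% from fat,, and the HFD library pooled ATMs of 3 mice given a high-fat diet of 58 kcal% fat overnight. The labels give the sort as CD45+Lin-Ly6Clow/-F4/80+, and the methods add CD11b+. With 1 library per diet, the mice within a library cannot be separated and no p-value was computed between diets; every interval below is at 95% and covers counting error only.

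Most tissue macrophages do not divide, and those that do pass through the same programme as other cells. In S phase the MCM helicase opens DNA, PCNA clamps the polymerase to it and ribonucleotide reductase and thymidylate synthase supply nucleotides; later, cyclin A and B with CDK1, the Aurora and Polo kinases and the spindle motors carry the cell through mitosis. Resident macrophages of fat, marked by *Lyve1*, can renew themselves by local division, whereas *Ccr2* and *Lyz1* mark ATMs that derive more recently from monocytes.

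The early and the late genes of this programme carry different letters in their promoters. Known sites for the E2F factors (TTTCCCGC, TTTGGCGC, TTTCGCGC and TTTCCCGG) are typical of S-phase genes, and the CHR element (TTTGAA), usually next to CCAAT boxes (CCAAT), of genes used in G2 and mitosis. RefSeq promoters of 300 bases (250 before the start and 50 after it, GRCm38.p6) were found for 35 of the 45 members, in 37 windows because *Mcm7* and *Prc1* have 2 each. Shown here are the 150 bases before the start of 4 members with the CHR letters and of 1 helicase gene with E2F letters, 5′ to 3′ on the strand of the gene, with every match on either strand in capitals.
*Mki67* (chr7:135716380-135716529, minus strand): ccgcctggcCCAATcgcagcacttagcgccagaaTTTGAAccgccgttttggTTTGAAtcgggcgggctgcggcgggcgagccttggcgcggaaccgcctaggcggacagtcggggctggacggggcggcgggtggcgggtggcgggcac
*Top2a* (chr11:99024190-99024339, minus strand): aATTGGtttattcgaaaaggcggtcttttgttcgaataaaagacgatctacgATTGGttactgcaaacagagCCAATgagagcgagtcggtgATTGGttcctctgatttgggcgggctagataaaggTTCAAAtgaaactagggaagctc
*Cdc20* (chr4:118437344-118437493, minus strand): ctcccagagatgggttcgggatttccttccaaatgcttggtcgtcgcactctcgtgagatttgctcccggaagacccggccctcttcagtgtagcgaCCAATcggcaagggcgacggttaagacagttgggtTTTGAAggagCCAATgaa
*Cdk1* (chr10:69352913-69353062, minus strand): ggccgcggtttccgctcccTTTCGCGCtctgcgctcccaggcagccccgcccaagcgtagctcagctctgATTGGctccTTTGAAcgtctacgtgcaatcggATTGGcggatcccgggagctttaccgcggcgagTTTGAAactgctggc
*Mcm6* (chr1:128359706-128359855, minus strand): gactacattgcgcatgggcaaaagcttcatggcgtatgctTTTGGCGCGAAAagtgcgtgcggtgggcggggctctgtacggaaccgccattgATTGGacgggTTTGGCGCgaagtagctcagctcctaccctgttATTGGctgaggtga
The stretch of *Mki67*, the proliferation marker Ki-67, held 2 CHR matches and 1 CCAAT box. That of *Top2a*, topoisomerase II, held 1 CHR match and 4 CCAAT boxes, and that of *Cdc20*, the activator of the anaphase-promoting complex, 1 and 2. *Cdk1*, the mitotic kinase, had 2 CHR matches, 2 CCAAT boxes and 1 E2F match. *Mcm6*, a subunit of the replicative helicase, had 2 CCAAT boxes and 3 E2F matches, of which the first 2 overlap, and no CHR match in this stretch.

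Over whole windows, the CHR letters stood in 20 of the 26 windows of later members (76.9%) and in 1 of the 11 of replication and nucleotide supply (9.09%), that of *Mcm2*, against 17.9% of all 32851 promoter windows. A CHR match together with at least 2 CCAAT boxes was found in 13 of the 26 (50%) and in none of the 11, against 2.09% of all windows. E2F letters were in 4 of the 11 (36.4%) and 2 of the 26 (7.69%), against 3.07% of all. CCAAT boxes did not separate the early from the late members (81.8% and 88.5% of windows, against 37.4% of all). A match is a description of letters and not a measured binding site, and 10 members had no promoter sequence here.

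**Figure D1:**
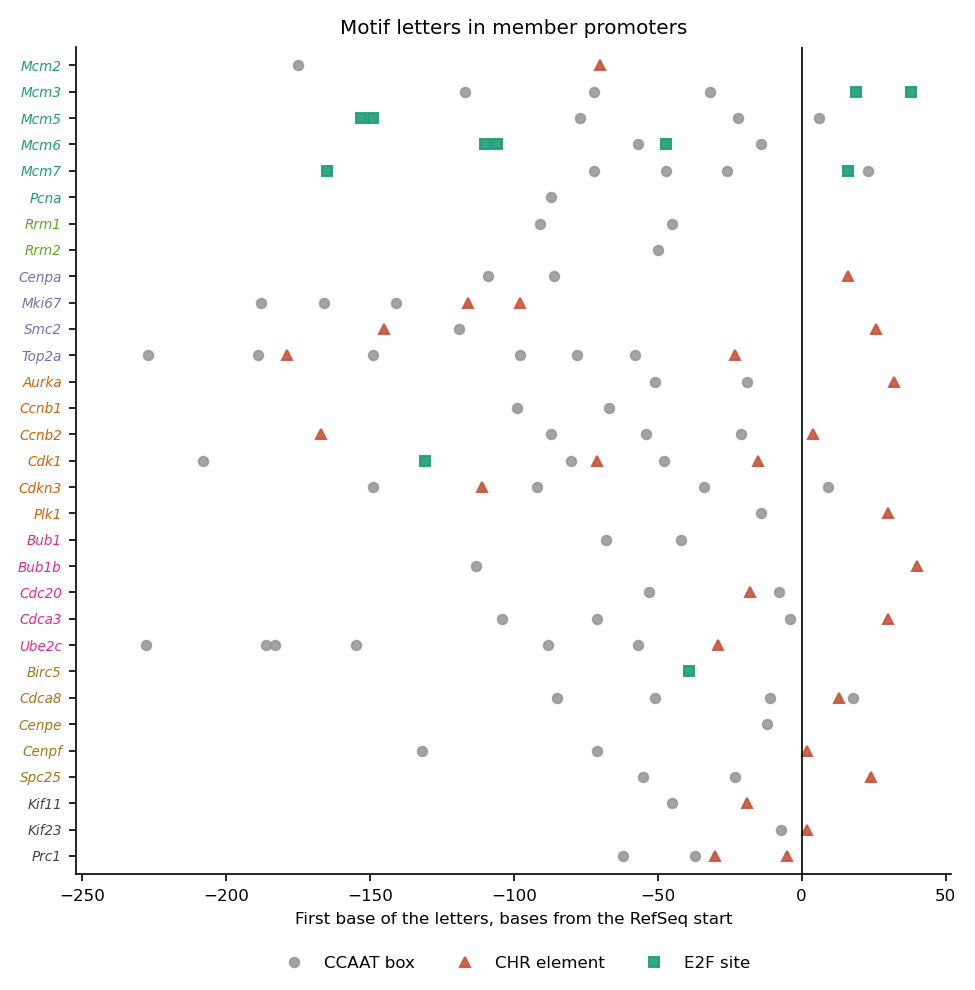
Position of CCAAT boxes (grey circles), CHR letters (red triangles) and E2F letters (green squares) in the promoter windows of the 31 members with any match, as bases from the RefSeq start (vertical line); gene names are coloured by role, from replication at the top to spindle at the bottom, and both windows of *Mcm7* and *Prc1* are drawn on 1 line. The CHR letters appear from *Cenpa* downward and, above it, in *Mcm2* alone, while E2F letters stand in 4 MCM genes, *Cdk1* and *Birc5*.

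After filtering (at least 200 genes and at most 10% mitochondrial UMIs, unique molecular identifiers, per cell, with no upper limit on genes), 2387 CD and 2027 HFD cells remained, with 12692636 and 8193870 UMIs. The CD cells were deeper, with a median of 4538 UMIs against 2803, and a gene is found in more cells at greater depth, so each share of cells is given at own depth and again with every cell thinned to 2000 UMIs. Of the cell barcodes, 14 occurred in both libraries, 7 of them among the cells kept and 1 with UMIs of 3 or more members. Scrublet's own threshold called 0 CD and 2 HFD doublets and so did not work; doublets were therefore kept, and the top scores were left out as an alternative.

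Fewer cells of the HFD library carried the cell cycle genes. In CD, 462 of 2387 cells had UMIs of 3 or more members, or 19.4% with an interval from 17.8 to 21.0. In HFD 184 of 2027 did, or 9.08% with an interval from 7.86 to 10.4, which is -10.3 points relative to CD (-12.3 to -8.25). With each cell at 2000 UMIs, the shares were 8.05% and 3.11%, a difference of -4.94 points (-6.44 to -3.38), over 2086 and 1253 cells; 301 CD and 774 HFD cells were shallower and left out. The threshold of 3 crosses a continuum, since exactly 2 members were detected in 474 CD and 272 HFD cells and exactly 3 in 196 and 103.

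Cells with 10 or more members, called the upper class here, formed a long tail. There were 99 such cells in CD (4.15%, 3.38 to 5.03) and 20 in HFD (0.987%, 0.604 to 1.52), -3.16 points (-4.10 to -2.26), and 53 and 12 of them had 20 or more members. Thinned to 2000 UMIs, 2.16% of CD and 0.798% of HFD cells still had 10 or more. Within ranges of depth, 10 or more members were found in 1.41% of CD and 0.813% of HFD cells with 2000 to 5000 UMIs, with an interval of the difference that spanned 0 (-1.62 to 0.610 points). They were found in 5.10% and 0.588% of cells with 5000 to 10000 UMIs (-6.36 to -2.76) and in 15.7% and 9.38% above 10000 UMIs (-12.6 to 1.08). For 3 or more members the shares were 11.6% and 5.04%, 25% and 17.6%, and 51.7% and 43.8% in the same ranges, and the interval spanned 0 in the deepest (-18.2 to 2.58).

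**Figure D2:**
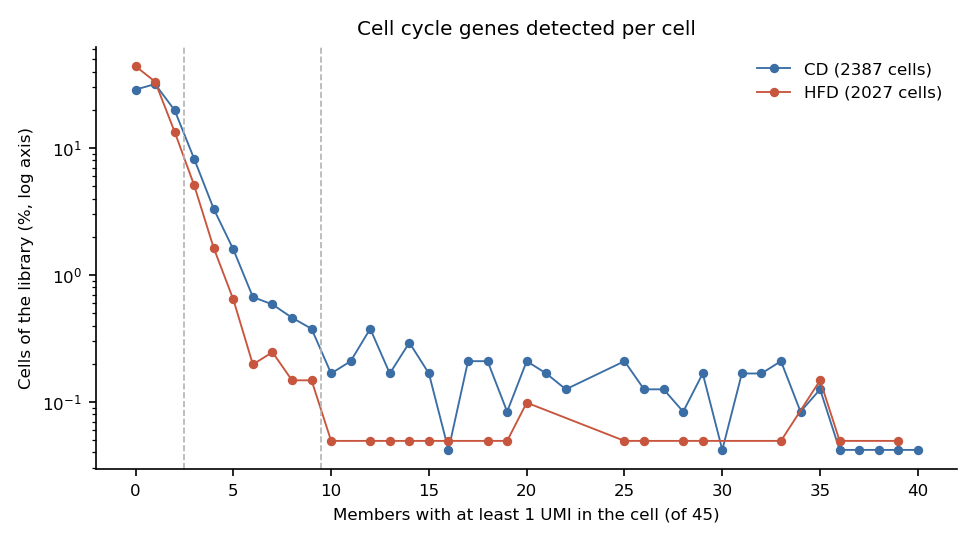
Percent of the cells of each library (log axis) by the number of the 45 members with at least 1 UMI in the cell; numbers that no cell showed are left out, and dashed lines stand below 3 and below 10 members. The CD line lies above the HFD line from 2 to 15 members, and both have a flat tail of cells with up to 40 (CD) and 39 (HFD) members.

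*Plac8* is a gene of circulating monocytes, which as a rule do not divide. Of 18 CD and 27 HFD cells with at least 3 of its UMIs, no cell had 10 or more members or a UMI of *Mki67*. A count of 0 has an interval up to 18.5% and 12.8% here, and the median depths were 6909.5 and 4851 UMIs. UMIs of 3 or more members were still seen in 3 of the 18 and 1 of the 27. Among all cells *Mki67* was found in 103 CD (4.32%) and 33 HFD cells (1.63%), and among cells with 0 to 2 members in 0.779% and 0.38%. Since *Mki67* is itself a member, the shares in cells with 0 to 2 members are lowered by the choice of cells.

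Summed over the 45 members, 11400 UMIs lay in the CD and 4022 in the HFD library, 898 and 491 CPM (UMIs scaled to the same total in both libraries), a log2 ratio of HFD over CD of -0.87 (-0.92 to -0.82). All 45 members were lower in HFD, against 53.3% of the 11211 genes with at least 20 UMIs. The ratio was -1 or less for 17 members (5.16% of all genes and 5.44% of those with 20 to 2500 UMIs) and 1 or more for none (2.13% of all genes). The interval lay below 0 for 38 members (21% of all genes and 18.5% of those with 20 to 2500 UMIs) and spanned 0 for the other 7. The median of the members was -0.90 and that of all genes -0.03. All 45 members passed the minimum of 20 UMIs, with 30 to 1983 UMIs each over both libraries.

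UMIs of 1 cell are not independent, and the tail was uneven. The 5 cells with most member UMIs held 9.91% of them in CD and 28.2% in HFD, so the intervals on UMIs are too narrow. Without the 5 top cells of each library, the log2 ratio of the sum was -1.19 and 31 members were at -1 or less. The share of all genes at -1 or less was not computed without those cells. By number of cells, 44 of the 45 members were found in a smaller share of HFD than CD cells at own depth (89.1% of all genes, since HFD cells were shallower) and 44 at 2000 UMIs (55.6% of all genes). At 2000 UMIs the interval of the difference lay below 0 for 20 members and above 0 for *Hist1h2ap*. The share of all genes with such an interval was not computed, so this count has no background to be read against.

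The upper class held fewer HFD cells. Its summed level was near that of CD, but its cells were chosen by the same genes, which bounds that level. Its HFD cells were also deeper, with a median of 11099 UMIs against 8658 in CD. Cells with 10 or more members held 66.9% of member UMIs in CD and 47.5% in HFD, at 8413 CPM in the 99 CD cells and 9128 CPM in the 20 HFD cells. Cells with 0 to 2 members had 214 and 203 CPM, and cells with 3 to 9 had 663 and 573. The median cell of the upper class carried 51 member UMIs in CD and 53 in HFD.

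**Figure D3:**
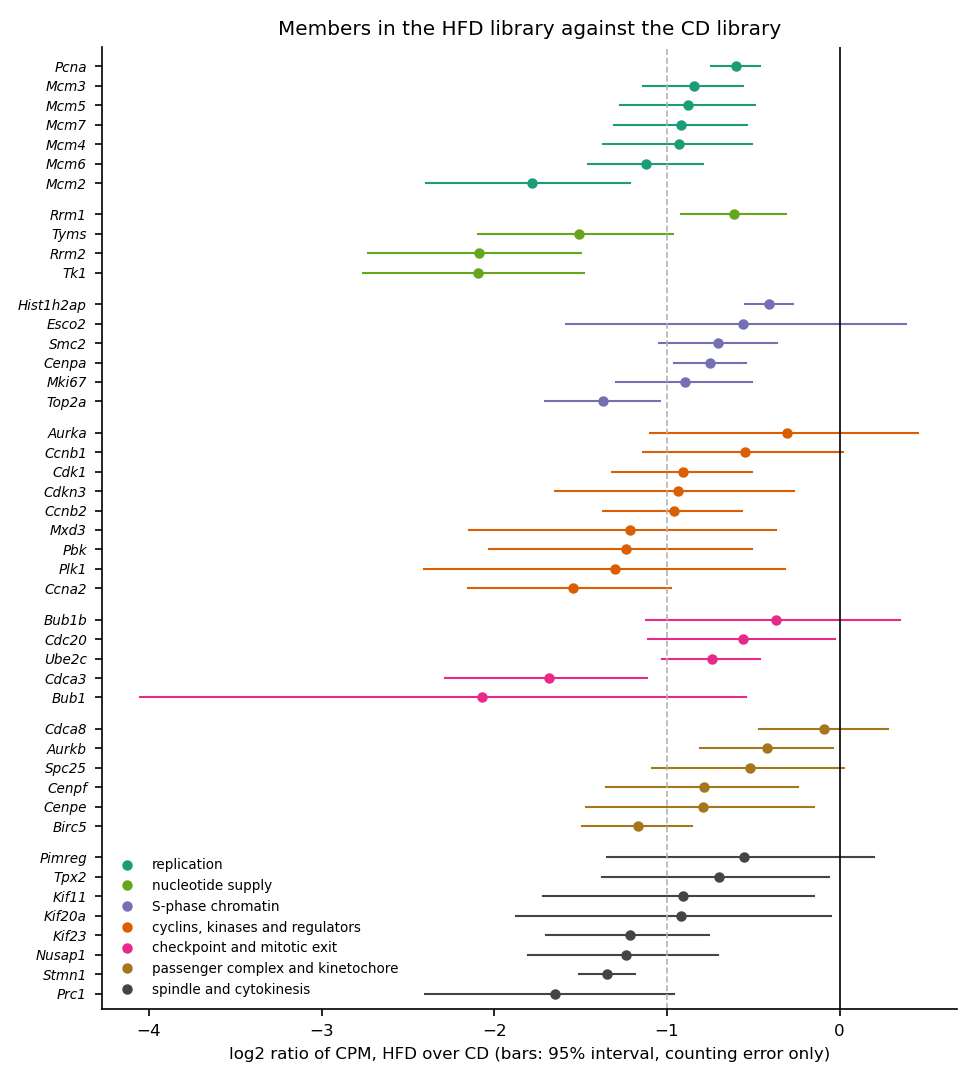
Log2 ratio of CPM, HFD over CD, for the 45 members by role (points), with 95% intervals for counting error (bars); the solid line marks 0 and the dashed line -1. All points lie below 0, from -2.09 (*Tk1*) to -0.09 (*Cdca8*).

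The 7 replication genes were all lower in HFD, with intervals below 0 for 7 of 7 and a summed level of 227 CPM in CD and 130 in HFD (log2 ratio -0.80, -0.90 to -0.70). The 6 MCM genes encode the ring of the replicative helicase. *Mcm2* had 160 UMIs in CD (12.6 CPM) and 30 in HFD (3.66 CPM), log2 ratio -1.78 (-2.40 to -1.21), the lowest of the 6. *Mcm6* had 333 and 99 UMIs (26.2 and 12.1 CPM), -1.12 (-1.46 to -0.79). The other helicase subunits lay close together. *Mcm3* had 373 and 134 UMIs (29.4 and 16.4 CPM), -0.85 (-1.14 to -0.56). *Mcm4* had 183 and 62 UMIs (14.4 and 7.57 CPM), -0.93 (-1.37 to -0.51). *Mcm5* had 216 and 76 UMIs (17.0 and 9.28 CPM), -0.88 (-1.27 to -0.49). *Mcm7*, with 228 and 78 UMIs (18.0 and 9.52 CPM), was at -0.92 (-1.31 to -0.54), within the intervals of those 3. *Pcna*, the sliding clamp, had 1385 and 589 UMIs (109 and 71.9 CPM), -0.60 (-0.74 to -0.46). *Pcna* was also found widely outside the upper class: 36.7% of CD and 22% of HFD cells had a UMI, 19.1% and 13.7% at 2000 UMIs, and 25% of its CD UMIs and 5.6% of its HFD UMIs lay in cells with 10 or more members.

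Of the 4 nucleotide supply genes, 3 were at -1 or less. *Tk1*, thymidine kinase of the salvage pathway, had 165 UMIs in CD (13 CPM) and 25 in HFD (3.05 CPM), log2 ratio -2.09 (-2.76 to -1.48), and *Rrm2*, the cell-cycle-bound subunit of ribonucleotide reductase, had 178 and 27 UMIs (14.0 and 3.30 CPM), -2.09 (-2.73 to -1.5). *Tyms*, thymidylate synthase, had 150 and 34 UMIs (11.8 and 4.15 CPM), -1.51 (-2.09 to -0.96). *Rrm1*, the large subunit of ribonucleotide reductase, was less far apart, with 308 and 130 UMIs (24.3 and 15.9 CPM), -0.61 (-0.92 to -0.31). This interval lies above those of the other 3, but the intervals are too narrow, since UMIs of 1 cell are not independent. Of the *Rrm1* UMIs, 41.6% in CD and 10.8% in HFD lay in cells with 10 or more members.

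Among the 6 genes of S-phase and mitotic chromatin, 5 had an interval below 0. *Top2a*, which untangles copied DNA, had 384 UMIs in 118 CD cells (30.3 CPM) and 96 in 40 HFD cells (11.7 CPM), -1.37 (-1.71 to -1.04). *Mki67*, which coats mitotic chromosomes, had 216 and 75 UMIs (17.0 and 9.15 CPM), -0.89 (-1.29 to -0.51). Most of their UMIs lay in the upper class, which both genes help to define. Cells with 10 or more members held 88% and 85.2% of them in CD and 74.0% and 78.7% in HFD. *Cenpa*, the centromeric histone H3, had 691 and 265 UMIs (54.4 and 32.3 CPM), -0.75 (-0.96 to -0.54), and *Smc2*, a condensin subunit, 257 and 102 UMIs (20.2 and 12.4 CPM), -0.70 (-1.05 to -0.37). *Esco2*, which establishes sister cohesion, had 46 UMIs in all and an interval that spanned 0 (-1.58 to 0.39).

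*Hist1h2ap*, a replication-dependent H2A gene (chr13:21833026-21833507, GRCm38, minus strand), was the exception among the members. It had 1334 UMIs in CD (105 CPM) and 649 in HFD (79.2 CPM), -0.41 (-0.55 to -0.27), yet its UMIs were in 122 CD cells (5.11%) and 194 HFD cells (9.57%), 4.46 points more (2.92 to 6.04), and at 2000 UMIs in 3.12% and 5.99%. In CD, 95.1% of its UMIs lay in cells with 10 or more members, in HFD 65.8%. Cells without a UMI of any other member carried it in 10 of 699 CD cells (1.43%, 3.85 CPM) and 67 of 962 HFD cells (6.96%, 28.7 CPM), a difference of 5.53 points (3.67 to 7.43), with at most 1 UMI in a CD cell and 4 in an HFD cell. Among such cells with at least 10 *Lyz1* UMIs, these were 2 of 113 and 41 of 244. Histone genes of this cluster are near-identical copies and most of their mRNAs lack a poly(A) tail, so their UMI counts are uncertain; whether this plays a part in the difference was not tested.

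The 9 cyclins, kinases and regulators had 73.3 CPM in CD and 37.1 in HFD (log2 ratio -0.98, -1.17 to -0.79), with intervals below 0 for 7. *Ccna2*, cyclin A, had 140 UMIs in CD (11 CPM) and 31 in HFD (3.78 CPM), -1.54 (-2.15 to -0.97). *Ccnb2*, a B-type cyclin, had 214 and 71 UMIs (16.9 and 8.67 CPM), -0.96 (-1.37 to -0.57), and its partner kinase *Cdk1* had 203 and 70 UMIs (16.0 and 8.54 CPM), -0.90 (-1.32 to -0.51). The other B-type cyclin had an interval that reached 0. *Ccnb1* had 86 and 38 UMIs (6.78 and 4.64 CPM), -0.55 (-1.14 to 0.02). *Plk1*, the Polo kinase, had 42 and 11 UMIs (3.31 and 1.34 CPM), -1.30 (-2.41 to -0.32), *Pbk*, a mitotic kinase, 73 and 20 UMIs (5.75 and 2.44 CPM), -1.24 (-2.03 to -0.51), and *Mxd3*, a MAX partner expressed in S phase, 54 and 15 UMIs (4.25 and 1.83 CPM), -1.22 (-2.15 to -0.37). *Aurka*, the Aurora kinase of the spindle poles, was at -0.30 with an interval from -1.10 to 0.45. *Cdkn3*, a phosphatase of CDKs, had 99 UMIs in all and was at -0.93 (-1.65 to -0.26).

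Of the 5 checkpoint and mitotic exit genes, 2 were at -1 or less. *Cdca3*, a trigger of mitotic entry, had 154 UMIs in CD (12.1 CPM) and 31 in HFD (3.78 CPM), log2 ratio -1.68 (-2.29 to -1.12), and *Bub1*, a checkpoint kinase, 26 UMIs in 22 cells and 4 UMIs in 2 cells (2.05 and 0.488 CPM), -2.07 (-4.05 to -0.54). The wide interval of *Bub1* is that of 30 UMIs. *Ube2c*, which feeds ubiquitin to the anaphase-promoting complex, had 375 and 145 UMIs (29.5 and 17.7 CPM), -0.74 (-1.03 to -0.46). *Cdc20* had 98 and 43 UMIs (7.72 and 5.25 CPM), -0.56 (-1.11 to -0.03), and *Bub1b*, its checkpoint inhibitor, was at -0.37 with an interval from -1.12 to 0.35.

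Genes of the chromosomal passenger complex and the kinetochore had unlike ratios. *Birc5*, survivin, had 369 UMIs in CD (29.1 CPM) and 106 in HFD (12.9 CPM), -1.17 (-1.49 to -0.85). Its partners in the complex were closer to equal. *Aurkb*, the kinase, had 176 and 85 UMIs (13.9 and 10.4 CPM), -0.42 (-0.81 to -0.04), and *Cdca8*, borealin, 160 and 97 UMIs (12.6 and 11.8 CPM), -0.09 (-0.47 to 0.28), the smallest difference of all members. The interval of *Birc5* did not meet those of *Aurkb* and *Cdca8*, but these intervals are too narrow, since UMIs of 1 cell are not independent. In HFD, 88.7% of *Birc5* UMIs lay in cells with 10 or more members, against 38.8% for *Aurkb* and 52.6% for *Cdca8*. In those cells *Birc5* was at 369 CPM in CD and 449 in HFD, *Aurkb* at 127 and 158 and *Cdca8* at 119 and 244. *Cenpf* had 104 and 39 UMIs (8.19 and 4.76 CPM), -0.78 (-1.35 to -0.24), *Cenpe*, a kinetochore motor, 75 and 28 UMIs (5.91 and 3.42 CPM), -0.79 (-1.47 to -0.15), and *Spc25*, of the microtubule-binding NDC80 complex, 91 and 41 UMIs (7.17 and 5.0 CPM), -0.52 (-1.09 to 0.03).

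The 8 genes of the spindle and cytokinesis had 173 CPM in CD and 71.9 in HFD (log2 ratio -1.27, -1.40 to -1.14), and 4 were at -1 or less. *Prc1*, which bundles the central spindle, had 102 UMIs in CD (8.04 CPM) and 21 in HFD (2.56 CPM), -1.65 (-2.40 to -0.96). *Stmn1*, stathmin, which destabilises microtubules, had 1557 and 395 UMIs (123 and 48.2 CPM), -1.35 (-1.51 to -1.19). *Nusap1*, a spindle-associated protein, had 135 and 37 UMIs (10.6 and 4.52 CPM), -1.24 (-1.80 to -0.70), and *Kif23*, the kinesin of the midbody, 180 and 50 UMIs (14.2 and 6.10 CPM), -1.22 (-1.70 to -0.76). The remaining 4 lay above -1. *Tpx2*, which activates Aurora A on the spindle, had 73 and 29 UMIs (5.75 and 3.54 CPM), -0.70 (-1.37 to -0.06). The motors *Kif11* and *Kif20a* had 78 and 59 UMIs in all and were at -0.90 (-1.72 to -0.15) and -0.92 (-1.87 to -0.05), and *Pimreg* was at -0.55 with an interval from -1.35 to 0.20.

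Within the upper class, the roles had unequal weight in the libraries. Replication genes made up 12.1% of member UMIs in the 99 CD cells and 5.61% in the 20 HFD cells, and nucleotide supply genes 6.66% and 3.35%. As levels, replication genes were at 1015 CPM in CD and 512 in HFD, and nucleotide supply genes at 560 and 306, whereas the genes of the checkpoint (669 and 995 CPM), of the passenger complex and kinetochore (856 and 1224 CPM), of the cyclins and kinases (894 and 1119 CPM) and of S-phase chromatin (2428 and 3194 CPM) were higher in the HFD cells and those of the spindle lower (1990 and 1779 CPM). The HFD levels rest on few cells: the 5 cells with most member UMIs held 1134 of the 1909 in the upper class, and 3 cells held 330 of its 427 *Hist1h2ap* UMIs. Cell by cell, replication and nucleotide supply genes made up a median of 16.4% of member UMIs in CD, with quartiles at 7.81% and 46.9%, and of 8.42% in HFD, with quartiles at 4.82% and 10.2%; the highest cell was at 88.5% and 62.5%. Early genes here are those of replication and nucleotide supply, and late genes are all other members, those of S-phase chromatin among them. Counted over all cells, 3 or more early genes without 3 late ones were seen in 105 CD (4.40%) and 26 HFD cells (1.28%). The difference was -3.12 points (-4.10 to -2.16). For 3 or more late genes without 3 early ones the counts were 73 (3.06%) and 41 (2.02%), -1.04 points (-1.97 to -0.0939). *Hist1h2ap*, an S-phase gene found in more HFD than CD cells, counts as late here. It held 1269 UMIs of the upper class in CD and 427 in HFD, and its part in these counts and shares was not tested. Within the upper class most cells had 3 of both, 84 of 99 in CD and 14 of 20 in HFD, so that this count separates its cells poorly.

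**Figure D4:**
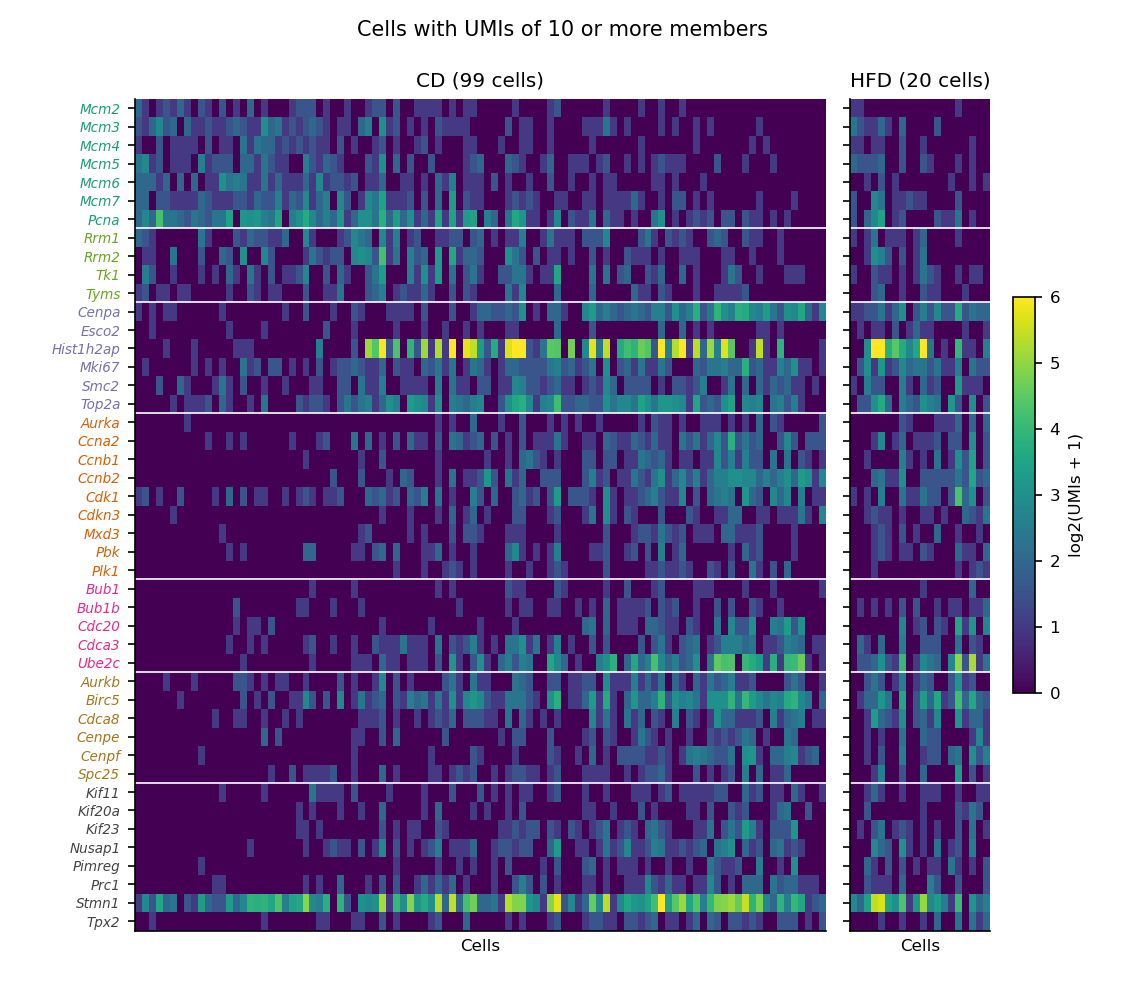
UMIs of the 45 members (rows, coloured by role in the order of the text, as log2(UMIs + 1)) in the 99 CD and 20 HFD cells with 10 or more members, with cells ordered from left to right by falling share of member UMIs in replication and nucleotide supply genes. The MCM genes fill the left of the CD panel, *Hist1h2ap* stands in its middle and right and *Ube2c*, *Ccnb2* and *Cenpa* at its right, and the HFD panel has few cells of the left-hand kind.

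Cells with 3 or more members occurred in every macrophage group and were fewer in HFD in each. Of *Lyve1*+ cells (at least 1 UMI), 195 of 1180 in CD (16.5%) and 26 of 415 in HFD (6.27%) had 3 or more members, -10.3 points (-13.2 to -6.85). Of *Ccr2*+ cells, 335 of 1349 (24.8%) and 154 of 1136 (13.6%) did, -11.3 points (-14.3 to -8.20). Of cells with at least 10 *Lyz1* UMIs, 177 of 576 (30.7%) and 111 of 677 (16.4%) did, -14.3 points (-19.0 to -9.64). These groups overlap and differ in depth, with medians of 4071 and 2299 UMIs in *Lyve1*+, 5994 and 4973 in *Ccr2*+ and 8532.5 and 6616 in *Lyz1* cells, CD before HFD. At 2000 UMIs the shares were 7.01% and 1.65% in *Lyve1*+, 8.7% and 3.28% in *Ccr2*+ and 9.3% and 2.97% in *Lyz1* cells, and the 3 intervals of the difference stayed below 0. The members alone were counted after thinning here, and the groups were still set at own depth.

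Split into 4 groups that do not overlap, the order at own depth followed *Ccr2*. In CD, 11.9% of *Lyve1*+ *Ccr2*- cells, 22.8% of *Lyve1*+ *Ccr2*+, 26.1% of *Lyve1*- *Ccr2*+ and 12.9% of *Lyve1*- *Ccr2*- cells had 3 or more members, and in HFD 3.07%, 11.7%, 13.8% and 3.49%. With members thinned to 2000 UMIs and the groups still set at own depth, this order was gone. The CD shares became 5.97%, 8.26%, 8.96% and 9.79%, with intervals that overlap, and the HFD shares 1.69%, 1.6%, 3.54% and 3.14%. The difference between libraries at 2000 UMIs had an interval below 0 in 3 of these 4 groups, the exception being *Lyve1*+ *Ccr2*- cells, of which 118 in HFD were deep enough (-6.82 to 0.303 points).

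**Figure D5:**
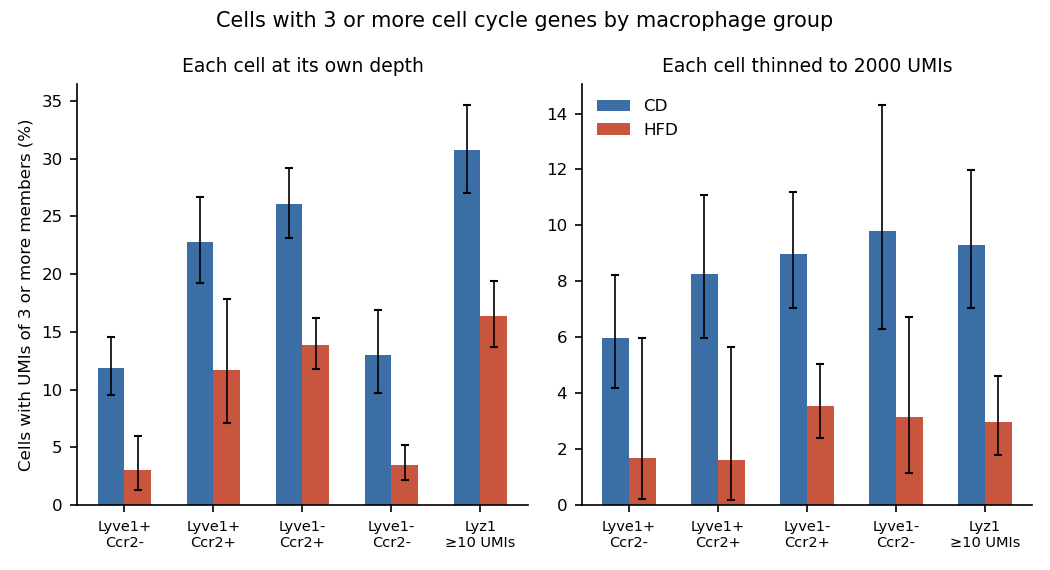
Percent of cells with UMIs of 3 or more members in 4 groups by *Lyve1* and *Ccr2* and in cells with at least 10 *Lyz1* UMIs, which overlap the other groups, for CD (blue) and HFD (red), at own depth (left) and thinned to 2000 UMIs (right, another scale); bars start at 0 and error bars are exact 95% binomial intervals. The HFD bar is the lower one in every group, and the CD bars are closer together on the right. Groups were set at own depth in both panels.

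The upper class held few *Lyve1*+ cells in HFD. Of the 99 CD cells in it, 32 were *Lyve1*+ and 75 *Ccr2*+, and of the 20 HFD cells 1 and 16; 40 and 11 had at least 10 *Lyz1* UMIs. The share that was *Lyve1*+ differed by -27.3 points (-37.9 to -6.90) at own depth and by -17.1 points (-27.3 to 2.84) at 2000 UMIs, and the intervals for *Ccr2*+ (-18.6 to 19.4) and *Lyz1* cells (-8.41 to 35.8) at own depth spanned 0. At 2000 UMIs in this paragraph, *Lyve1* and *Ccr2* were called after thinning and the classes were set at own depth. At own depth, *Lyve1*+ cells made up 49.4% of all CD and 20.5% of all HFD cells, and 32.3% and 5% of the upper class. The part of the make-up of the libraries in the latter was not tested. *Lyve1*+ *Ccr2*+ cells had 22 cells of the upper class among 505 in CD and 0 among 154 in HFD, with an interval up to 2.37%. At 2000 UMIs, *Lyve1* was found in 22.1% of CD upper-class cells and 40.5% of CD cells with 0 to 2 members, and in 5% and 14.3% in HFD. *Ccr2* was in 50.5% and 44.3% in CD and, in the other order, in 45% and 58.1% in HFD. Summed member levels in *Lyve1*+ cells were 744 CPM in CD and 303 in HFD, log2 ratio -1.30 (-1.44 to -1.15), and in *Ccr2*+ cells 878 and 499 CPM, -0.82 (-0.88 to -0.76).

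The cells of the upper class carried macrophage markers. All 99 CD and 20 HFD cells had UMIs of 3 or more of 11, as did 99.4% and 97.6% of cells with 0 to 2 members; *Lyz2*, lysozyme, was in every one, and *C1qb*, a complement gene of tissue macrophages, in 97 and 18, while *Fcgr1*, the receptor CD64, was in 25 of the 99 and none of the 20. The list summed to 20672 CPM in the upper class and 26531 CPM in cells with 0 to 2 members in CD, and to 18896 and 27258 CPM in HFD. *Csf1r*, the receptor for CSF1, was at 527 and 868 CPM in CD and 206 and 509 CPM in HFD, and *C1qa* at 2379 and 4081 CPM and at 693 and 2234 CPM. The B cell, T or NK cell, neutrophil, endothelial, stromal and mesothelial lists were each at 9.92 CPM or less there, and no cell had 3 genes of any of them. Of 11 dendritic cell markers, 4 CD (4.04%) and 2 HFD cells (10%) had 3 or more, against 1.40% and 1.36% of cells with 0 to 2 members. The list summed to 197 CPM in the upper class and 236 CPM in cells with 0 to 2 members in CD, and to 249 and 246 CPM in HFD. *Flt3* and *Clec9a* were at 0, but were too rare for this to show absence. In cells with 0 to 2 members they were at 1.33 and 0.445 CPM in CD and 2.11 and 0.301 in HFD. *Napsa* was at 86.0 and 52.8 CPM in CD and 158 and 89.6 CPM in HFD. *Klrd1* was at 11.03 and 3.56 CPM and at 14.3 and 7.82 CPM. *Ccl17* (17.6 and 6.23), *Zbtb46* (8.82 and 4.45) and *Xcr1* (2.21 and 0.222) were higher in CD alone. For *Ccl17*, 1 cell held 13 of 16 UMIs. *Cd209a* (71.7 and 144 in CD, 66.9 and 73.2 in HFD), *Siglech*, *Ccr7* and *Itgae* were lower in both. The part of dendritic cells in the result was not tested. The peritoneal macrophage list of 7 genes stood at 536 CPM in the 20 HFD cells, 202 CPM in HFD cells with 0 to 2 members and 19.8 CPM in the 99 CD cells, with *Gata6*, its defining gene, at 0 in the 20 and the 99. *Gata6* was too rare for this to show absence, at 0.222 CPM in CD and 0.752 CPM in HFD cells with 0 to 2 members. Of the 71 UMIs of *Saa3* in the 20 HFD cells, 1 cell held 70. For *Alox15* 1 cell held 14 of 15 UMIs, and for *Prg4* 1 cell held all 12. *Icam2* had 10 UMIs in 3 of the 20 HFD cells, at most 6 in a cell. It was at 47.8 CPM there and 17.7 CPM in HFD cells with 0 to 2 members. Of the 20 cells, 1 had 3 or more of the list. Leaving out every cell with 3 or more peritoneal markers, an alternative chosen after seeing the data, gave 19.4% and 9.03% of cells with 3 or more members and a log2 ratio of the sum of -0.87. Top Scrublet scores were held by 5 of the 99 and 0 of the 20, and without all top scores the shares were 19.1% and 8.85%.

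Other genes of the pathway were taken from lists of licensing, mitotic, regulatory and histone genes. Of all genes with at least 20 UMIs, 5.16% were at -1 or less and 2.13% at 1 or more. Intervals lay below 0 for 21% of all genes and above 0 for 15.7%. Of 20 licensing and fork genes with at least 20 UMIs, 8 were at -1 or less and none at 1 or more, with a median of -0.80 and intervals below 0 for 15. *Uhrf1*, which maintains DNA methylation behind the fork, had 102 UMIs in CD and 10 in HFD, log2 ratio -2.72 (-3.82 to -1.78). *Cdc6*, *Pclaf*, *Dut* and *Lig1* were at -1.88, -1.31, -1.14 and -1.09. The genes of this list with most UMIs were nearer 0, with *Slbp*, which binds histone mRNA, at -0.19, *Gmnn*, the licensing inhibitor geminin, at -0.43 and *Rfc2* at 0.02 (-0.23 to 0.26). Of 50 other mitotic genes, 17 were at -1 or less and none at 1 or more, with a median of -0.64. Intervals lay below 0 for 32 of the mitotic genes and above 0 for 1. Those named by the rule were at -1.73 (*Iqgap3*), -1.56 (*Nuf2*), -1.44 (*Ckap2*), -1.33 (*Cenpm*), -1.33 (*Ncapd2*), -1.28 (*Asf1b*), -1.27 (*Melk*), -1.22 (*Shcbp1*), -1.19 (*Cit*), -1.18 (*Lmnb1*) and -1.05 (*Spc24*). The tubulins *Tuba1b* (-0.54) and *Tubb5* (-0.44) and the histone variant *H2afz* (-0.11), which all cells use, had smaller differences. The mitotic gene with an interval above 0 was *Cks2*, named after its value was seen. It had 723 UMIs in CD and 607 in HFD, log2 ratio 0.38 (0.22 to 0.54).

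Regulators upstream of these genes differed less by the median of each list, though not every gene did. *Ccnd1* had 499 UMIs in CD and 175 in HFD and was at -0.88 (-1.14 to -0.63). *Cdkn2c* had 338 and 112 and was at -0.96 (-1.28 to -0.65). Of 8 G1 cyclins and kinases, 5 had an interval below 0 and 1 was at -1 or less (*Ccne2*, 22 and 4 UMIs), with a median of -0.51, and *Ccnd2*, *Ccnd3* and *Cdk4* were at -0.54, -0.49 and -0.10 (-0.27 to 0.07). The 10 CDK inhibitors and pocket proteins had a median of -0.03 with none past 2-fold. Their intervals lay below 0 for 2 and above 0 for 2, near the 21% and 15.7% of all genes. *Cdkn1a*, the inhibitor p21, had 3546 UMIs in CD (279 CPM) and 2804 in HFD (342 CPM), 0.29 (0.22 to 0.36), *Rb1*, the retinoblastoma protein, was at 0.27 (0.07 to 0.47) and *Cdkn2d* at -0.04. Of 12 E2F, MYB, FOXM1 and MYC factors, 3 were at -1 or less, each with few UMIs: *Foxm1* and *Mybl2*, activators of late genes, with 32 and 6 and with 29 and 3, and *E2f7*, a repressor, with 22 and 2. These 3, *Ccne2*, *Ccnd1* and *Cdkn2c* were named after their values were seen. The E2F factors with most UMIs were *E2f1* at -0.04 and *E2f4* at 0.25 (-0.01 to 0.50), and their partner *Tfdp1* was at -0.38 (-0.68 to -0.08).

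Most histone genes lay on the other side of 0. Of 10 further replication-dependent histone genes with at least 20 UMIs, 5 were at 1 or more (2.13% of all genes). At -1 or less there was 1 (5.16% of all genes), and the median was 0.89. *Hist1h1c*, a linker histone, had 602 UMIs in CD (47.4 CPM) and 880 in HFD (107 CPM), 1.18 (1.03 to 1.33), *Hist1h2bc* had 728 and 1046, 1.15 (1.02 to 1.29), *Hist1h4i* 194 and 357, 1.51 (1.26 to 1.77), and *Hist1h4c* 47 and 78, 1.36 (0.82 to 1.92). For *Hist1h1c*, *Hist1h2bc* and *Hist1h4i* the difference was present, as with *Hist1h2ap*, in cells without other members, and for *Hist1h4c* its interval there spanned 0 (-1.08 to 2.30 points at 2000 UMIs). In cells with no UMI of the other 44 members, thinned to 2000 UMIs, *Hist1h4i* was found in 7 of 524 CD cells (1.34%) and 41 of 428 HFD cells (9.58%), 8.24 points more (5.43 to 11.5), and *Hist1h1c* in 7.25% and 18.0%, 10.7 points more (6.53 to 15.1). From cells with 0 to 2 members to the upper class, *Hist1h1c* went from 47.9 to 49.6 CPM in CD and from 109 to 129 in HFD. *Hist1h2bc* went from 49.9 to 108 and from 118 to 167, and *Hist1h4i* from 13.3 to 39.7 and from 42.4 to 76.5. *Hist1h4c* went from 3.89 to 5.51 and from 9.17 to 4.78. *Hist1h2ap* went from 3.22 to 1399 CPM in CD and from 20.3 to 2042 in HFD. Whether the limits given for *Hist1h2ap* hold alike for each of these genes was not tested.

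Genes outside the set were compared between cells with 3 or more members and the other cells of the same library, as a description, since the cells were chosen by genes that travel with them. Of 3380 genes with at least 50 UMIs in those cells of both libraries, 10 (0.296%) were at 1 or more in both. They were *Pclaf*, which binds PCNA (log2 ratios 6.30 in CD and 5.86 in HFD), *Racgap1* of cytokinesis (2.68 and 2.16), *Cks1b* (2.75 and 2.02), *Hmgb2* (1.86 and 1.68), *H2afx* (2.16 and 1.65), *Kpna2* (1.55 and 1.37), *Hmgn2* (1.5 and 1.22), *Plp2* (1.72 and 1.21), *Tmpo* (1.37 and 1.10) and *Gmnn* (2.25 and 1.07). Of 3459 genes with at least 50 UMIs expected, 10 (0.289%) were at -1 or less in both. These included 4 haemoglobin genes, which macrophages do not make: *Hba-a1* was at 9.19 CPM in CD cells with 3 or more members and 315 CPM in the others, and at 1.30 and 282 CPM in HFD. Its UMIs in the others lay in few cells, 2834 in 115 of 1925 CD cells and 1875 in 33 of 1843 HFD cells. The others were *Plac8* (-1.63 and -3.67), *Slpi* (-1.23 and -3.03), *Cd38* (-1.29 and -1.62), *Thbd* (-1.16 and -1.24), *C4b* (-1.06 and -1.57) and *Cd209b* (-1.05 and -1.25). Among cells with 0 to 2 members, *Plac8* UMIs likewise lay in few, 28 CD and 65 HFD cells. Cells with 3 or more members were deeper than the others, with medians of 6474 (3 to 9 members) and 8658 (10 or more) against 3987 UMIs in CD and 8158 and 11099 against 2484 in HFD; the part of depth in these ratios was not tested.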

How the data were processed

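ATMs sorted from the epididymal fat of 3 CD mice and of 3 HFD mice, each pooled into 1 library, were profiled with the 10x Genomics 3′ V2 kit. The authors aligned reads to mm10 (Ensembl 93) in Cell Ranger 3.0.2 and deposited UMI counts, not normalized, for every gene in every barcode; the regression of cell cycle scores in their methods does not touch them. Members, lists and rules were chosen with earlier results of these data known.

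Barcodes with under 200 genes or over 10% mitochondrial UMIs were left out, with no upper gene limit. Levels were summed UMIs scaled to a common library total (CPM). Intervals at 95% were exact binomial (Clopper-Pearson) for shares, conditional binomial for ratios of UMIs and Newcombe's for a difference between shares (Python 3.11.15, numpy 2.4.6, scipy 1.17.1). Thinning drew UMIs of each cell without replacement (seed 1). Genes past 2-fold with at least 20 UMIs over both libraries were counted. Members were named with values at 100 UMIs or more or past 2-fold, and list genes if among the 3 with most UMIs or past 2-fold with at least 50; 1 list gene is not reported here. Ratios were tested on simulated data. Gene positions came from GENCODE (GRCm38) and promoters from RefSeq.

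Alternatives were other filters on cells, thresholds, depths and scalings, and Scrublet scores (scanpy 1.11.5). A total of 2059 CD and 1132 HFD barcodes exceeded the mitochondrial limit. The counting error of the shares rests on 2387 and 2027 kept cells. With 1 library per diet, the spread between mice was not measured.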

Additional observations from a re-analysis of the deposited data

Results flagged for a closer look

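The barcodes left out for over 10% mitochondrial UMIs, which enter no comparison above, also held cells with 3 or more members. There were 56 of 2043 such barcodes in CD (2.74%, 2.08 to 3.54) and 12 of 1120 in HFD (1.07%, 0.555 to 1.86), at median depths of 896 and 739 UMIs. Of them, 7 in CD and 3 in HFD had 10 or more members. The order of the libraries was that of the kept cells.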

How the results depend on the processing

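No comparison changed sign under any alternative, and each of the 45 members stayed below 0 in 10 of the 11 alternatives that recompute single members; with at least 1000 genes per cell *Cdca8* was above 0. The difference in cells with 3 or more members (-10.3 points) was -8.09 with a limit of 20% mitochondrial UMIs and -7.34 with at least 1000 genes. With 2, 5 or 10 members as the threshold it was -16.7, -5.47 and -3.16, with 3 members outside replication and nucleotide supply -4.23, thinned to 800 UMIs -2.21 and to 2000 UMIs -4.94. In the same order (2, 5, 10, outside replication, 800, 2000), it was -15.7, -4.40, -2.47, -3.06, -1.48 and -5.36 in *Lyve1*+ and -14.6, -7.14, -4.15, -4.88, -2.86 and -5.41 in *Ccr2*+ cells, and, from 5 on, -9.34, -5.32, -7.49, -3.04 and -6.32 in *Lyz1* cells; the interval of *Lyve1*+ cells at 800 UMIs reached 0.231. These settings change what is counted.

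The log2 ratio of summed members (-0.87) was -0.93 with a limit of 5% mitochondrial UMIs, -1.19 without the 5 top cells of each library and -1.28 under the filters of the methods. The last 2 gave 31 and 33 members at -1 or less in place of 17. The median of all genes was -0.02 in both, and their share at -1 or less was not computed there. The upper gene limit of the methods, 3512.75 genes in CD and 3038 in HFD, left 89 of the 99 CD and 11 of the 20 HFD cells with 10 or more members, so it removed a larger share of these cells in HFD. Scalings moved the median of all genes by less than 0.1. No paired analysis was possible because each diet has 1 library, and for the same reason no replicate could be left out. With 20 HFD cells in the upper class, differences within it are limited by cell number.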

Other observations

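Lists that hold no cell cycle gene describe the macrophage make-up of the upper class, in which division itself was not measured. The 8 resident markers (*Lyve1*, *Folr2*, *Timd4*, *Fcna*, *Gas6*, *F13a1*, *Cd163* and *Selenop*) summed to 8582 CPM in CD cells with 0 to 2 members and 3981 CPM in those with 10 or more, and to 3758 and 1191 CPM in HFD. *Folr2* was found, at 2000 UMIs, in 47.4% of CD upper-class cells against 74.2% of CD cells with 0 to 2 members, and in 1 of the 20 HFD cells against 33.5%. The 8 monocyte-derived markers were at 5845 and 5702 CPM in CD and at 9872 and 8654 CPM in HFD. Within that list *Ccr2*, *Ear2*, *Fn1* and *Lyz1* were present, while *Plac8*, *Ly6c2* and *Chil3*, genes of monocytes, had 3, 2 and 1 UMIs in the 99 CD cells and none in the 20 HFD cells. In cells with 0 to 2 members *Plac8* was at 30.9 CPM in CD and 107 CPM in HFD. *Ly6c2* (4.67 and 10.4 CPM) and *Chil3* (2.11 and 8.57 CPM) were low there too, and the sort took Ly6Clow/- cells. The UMIs of *Plac8*, *Ly6c2* and *Chil3* there lay in 28, 11 and 11 of 1925 CD cells. In HFD they lay in 65, 18 and 19 of 1843 cells. In the CD upper class they lay in 3, 2 and 1 of the 99 cells. With so few cells, these counts do not show absence from the upper class. *Vcan*, the last gene of the list, had 0 UMIs in the 99 CD cells and 1 in the 20 HFD cells. Of the 6 lipid-associated macrophage markers, 3 or more were found in 18.2% of CD upper-class cells and 4.68% of CD cells with 0 to 2 members. In HFD they were found in 15% and 2.33%, without adjustment for the greater depth of the upper class. As a level the list was not higher there, at 829 and 924 CPM in CD and 928 and 936 CPM in HFD. *Spp1* had 1 UMI in the upper class of each library, and *Gpnmb* 0 in CD and 3 in HFD. *Lpl*, lipoprotein lipase, was at 659 and 759 CPM in CD and 693 and 814 CPM in HFD, and *Fabp5*, a fatty acid binding protein, at 78.3 and 45.7 CPM and at 110 and 46.5 CPM. *Cd9* was at 36.4 and 25.4 CPM and at 95.6 and 36.1 CPM, and *Trem2* at 54.0 and 86.3 CPM and at 9.56 and 35.0 CPM. The HFD upper-class values rest on few cells. For each gene, 1 cell held 13 of the 20 UMIs of *Cd9*, 13 of the 23 of *Fabp5* and 64 of the 145 of *Lpl*. *Trem2* had 2 UMIs there.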
